A study of Mus musculus with 10 samples.

Results

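The comparison sets mouse embryonic stem cells that lack the enhancers E1 and E3 (E1&E3-dKO, 2 libraries) against cells that lack E1 alone (E1-KO, 2 libraries). These are 4 of the 10 exo-Hi-C libraries of the series, chosen by their genotype label, and no wild-type library enters. E1 is missing from all 4, so the comparison asks what is different when E3 is removed in cells already without E1. All cells are of the line ES-E14TG2a, derived from mouse embryos and grown without feeder cells in medium with LIF and inhibitors of GSK3b and MEK, which hold such cells in the pluripotent state. The labels give neither the position of the enhancers nor whether libraries of 1 genotype are separate cultures or clones. Each p-value therefore reflects only how far these libraries differ, which may be technical. Contact maps carry no marker genes, so the cell type could not be checked. Positions are in mm9, for which no annotation was at hand, so regions are named by position alone.

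Hi-C joins pieces of DNA that lie close together in the nucleus and counts the joined pairs, so that a high count between distant positions records contact. In exo-Hi-C, exonucleases also digest DNA that stayed linear. The labels mention exonuclease mixes called LRC and LIC but tie neither of them to a particular library. Whether the mix differed between groups or replicates is therefore unknown, and its part in the differences below was not tested. Contacts fall steeply with distance along the chromosome. Within this decay, chromosomes form topologically associating domains (TADs), stretches that contact themselves more than their surroundings and meet at boundaries. In mammalian cells, boundaries often carry the protein CTCF and cohesin, the ring complex that extrudes loops, and an enhancer acts mostly on promoters of its own domain.

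Listed interactions spanned longer distances in the double deletion than in the E1 deletion. The median distance was 0.21 Mb in E1-KO replicate 1, 3.91 Mb in E1-KO replicate 2, 48.05 Mb in E1&E3-dKO replicate 1 and 26.5 Mb in E1&E3-dKO replicate 2. The groups did not overlap, with means of 2.06 ± 2.62 Mb and 37.3 ± 15.2 Mb (SD, n = 2 each) and a difference of 1.60 on the log10 scale. The exact permutation p was 0.333 (two-sided), the smallest that 2 libraries against 2 can give. Without E1-KO replicate 1 the difference was 0.96. The number of interactions did not separate the groups: 1066 and 518 were listed in E1-KO, and 851 and 6014 in E1&E3-dKO (exact permutation p = 0.667).

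The distance classes show which contacts made up this difference. Interactions under 2 Mb numbered 787 and 207 in E1-KO and 108 and 342 in E1&E3-dKO, so the groups overlapped. Those of 20 Mb and more numbered 133 and 190 in E1-KO and 603 and 3713 in E1&E3-dKO, and did not overlap. They made up 12.5% and 36.7% of the E1-KO lists and 70.9% and 61.7% of the E1&E3-dKO lists, a difference of 41.7 percentage points (exact permutation p = 0.333). Long entries rested on few reads in both genotypes: the median for those of 20 Mb and more was 3 reads in each of the 4 libraries. Over all distances the median interaction had 15 and 6 reads in E1-KO and 3 and 3 in E1&E3-dKO. Entries of exactly 3 reads made up 6.38% and 28.4% of the E1-KO lists and 62.0% and 83.8% of the E1&E3-dKO lists.

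**Figure D1:**
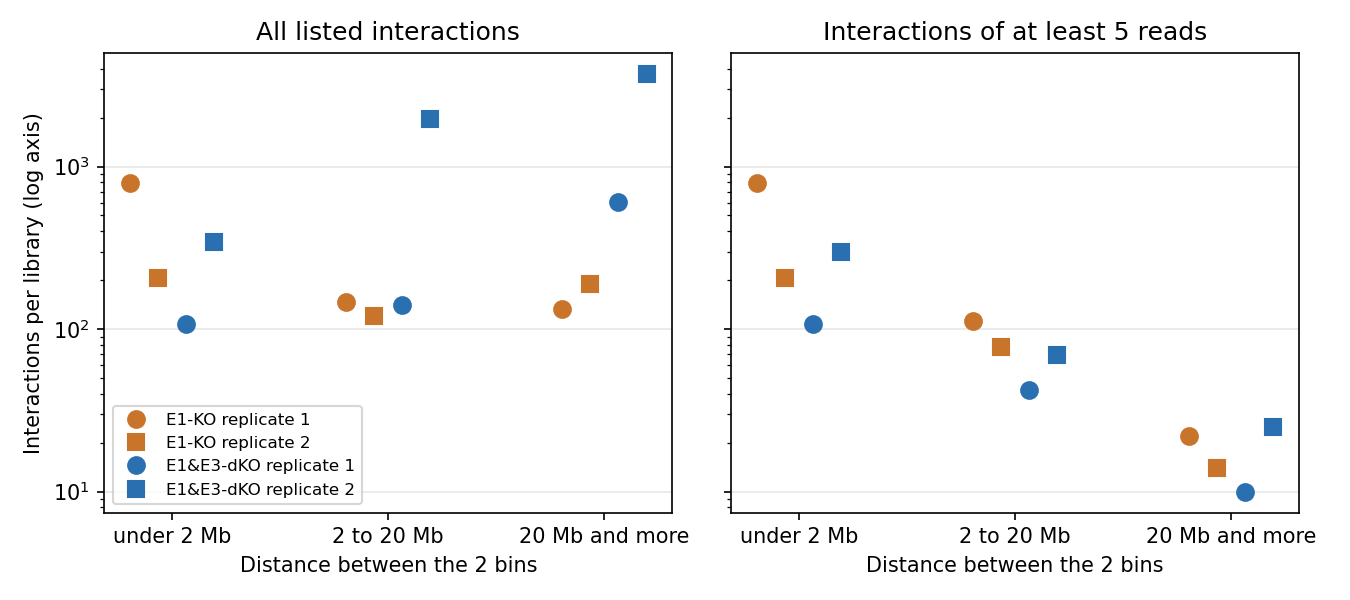
Listed interactions in 3 distance classes for each of the 4 libraries, for all listed interactions and for those with at least 5 reads. Among all interactions, those of 20 Mb and more take 70.9% and 61.7% in E1&E3-dKO against 12.5% and 36.7% in E1-KO. With at least 5 reads they take at most 6.39% in any library.

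The excess of long contacts shrank as more reads were required, by limits chosen after the data were seen. With at least 4 reads, interactions of 20 Mb and more numbered 65 and 43 in E1-KO and 87 and 272 in E1&E3-dKO. They made up 6.51% and 11.6% against 26.9% and 27.9%, a difference of 18.4 percentage points, and median distance was 0.19 and 1.36 Mb against 6.67 and 4.97 Mb. The groups did not overlap in any of these. Interactions with at least 5 reads numbered 921 and 299 in E1-KO and 160 and 391 in E1&E3-dKO. Those of 20 Mb and more were 22 and 14 in E1-KO and 10 and 25 in E1&E3-dKO, or 2.39% and 4.68% against 6.25% and 6.39%. The difference in share was 2.79 percentage points in place of 41.7, still without overlap. The difference in number of all interactions was 1.61 on the log2 scale; it was 0.20 without E1&E3-dKO replicate 2, 0.24 at an adjusted p of at most 0.001, and -1.07 with at least 5 reads. The difference in median distance was 0.21 on the log10 scale in place of 1.60, and there the groups overlapped.

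Total reads are not in the files, but the deposited p-values hold the contacts expected for an average pair of bins at each distance, a measure of relative depth. At 1 Mb these were 0.246 and 0.114 contacts per pair of 10 kb bins in E1-KO and 0.110 and 0.0689 in E1&E3-dKO, so by this measure both E1&E3-dKO libraries lay below both E1-KO libraries. E1&E3-dKO replicate 1 and E1-KO replicate 2 changed order with distance, with 0.965 against 0.923 at 0.1 Mb and 0.00246 against 0.00192 at 60 Mb. An average pair 1 Mb apart needed at least 8 and 6 reads to be listed in E1-KO and 6 and 5 in E1&E3-dKO. At 40 Mb it needed 4 and 4 in E1-KO, against 4 and 3 in E1&E3-dKO. This need also rests on the largest deposited p-value of each list, which differed. It was 6.82e-09 and 3.33e-09 in E1-KO and 5.41e-09 and 3.87e-08 in E1&E3-dKO. E1-KO replicate 2 and E1&E3-dKO replicate 1 are the closest libraries from different groups at 1 Mb, but not at 60 Mb. At 20 Mb their expected contacts were 0.00795 and 0.00679, so they are not matched at long distances. Between E1-KO replicate 2 and E1&E3-dKO replicate 1 the median distance was 3.91 against 48.05 Mb, and interactions of 20 Mb and more numbered 190 against 603. That is 1 library against 1, with no replicate check. The part of depth in the distance difference over all 4 libraries was not tested.

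**Figure D2:**
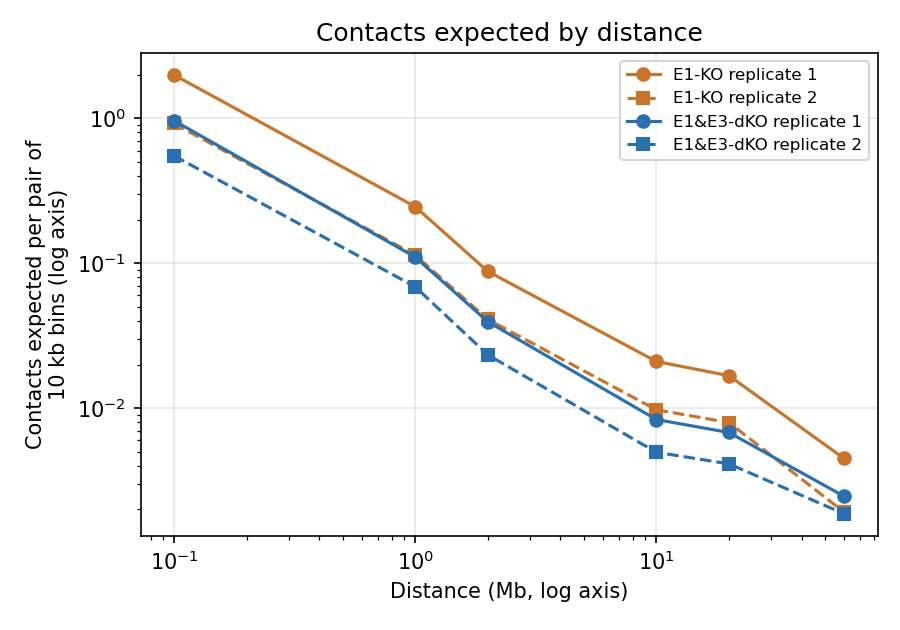
Contacts expected for an average pair of 10 kb bins against the distance between the bins, both on log axes, for the 4 libraries. The E1-KO replicate 1 curve is highest (0.246 at 1 Mb) and the E1&E3-dKO replicate 2 curve lowest (0.0689), and the curves of E1-KO replicate 2 and E1&E3-dKO replicate 1 lie close together.

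The decay of expected contacts with distance also differed between the groups, in opposite directions at 20 and 60 Mb. Expected contacts at 20 Mb divided by those at 1 Mb gave 0.0681 and 0.0698 in E1-KO and 0.0615 and 0.0599 in E1&E3-dKO. By this ratio, which cancels a depth factor common to all distances, E1&E3-dKO libraries had relatively fewer contacts at 20 Mb, and the groups did not overlap. At 60 Mb the order turned: the ratio to 1 Mb was 0.0183 and 0.0168 in E1-KO, against 0.0223 and 0.0271 in E1&E3-dKO, again without overlap. Relative to 1 Mb, E1&E3-dKO libraries thus had fewer expected contacts at 20 Mb and more at 60 Mb.

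Few interactions separated the genotypes. Of 7732 distinct interactions in the 4 libraries, matched when both ends lay within 1 bin, 12 were in both E1&E3-dKO libraries and neither E1-KO library (gained, 0.155%). In the reverse case were 32 (lost, 0.414%). In all 4 libraries there were 55, and 7481 were in 1 library. Of the 137 interactions held by both E1-KO libraries 23.4% were lost, and of the 84 held by both E1&E3-dKO libraries 14.3% were gained. Leaving out 1 library, so that a feature is judged on fewer lists, gave 19 to 5796 gained and 47 to 744 lost; the highest gained count was without E1&E3-dKO replicate 1 and the highest lost count without E1-KO replicate 2. With the 518 best interactions of each library, 6 were gained and 43 lost.

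By distance, under 2 Mb there were 6 gained and 18 lost of 981 interactions. From 2 to 20 Mb there were 5 gained and 12 lost of 2165. At 20 Mb and more, where most entries lay, 1 was gained and 2 were lost of 4586. Of the 603 and 3713 entries of this class in the E1&E3-dKO lists, then, nearly none was held by both E1&E3-dKO libraries while missing from E1-KO. Median distance was 2.33 Mb for the gained (0.03 to 52.21 Mb) and 1.3 Mb for the lost (0.03 to 52.31 Mb). Chromosome 8 held 5 of the lost, of 376 interactions there. Chromosomes 7, 12 and 14 held 4 each, of 406, 358 and 346. Over all chromosomes 0.414% were lost and 0.155% gained. No interaction was gained or lost on chromosomes 2, 9, 11, 15, 16, 18 and 19, which held from 100 (chromosome 19) to 621 (chromosome 2). Whether chromosomes differ was not tested.

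Each lost interaction was set against the reads it would have needed to be listed in E1&E3-dKO, given the bias factors of its bins. Its enrichment, reads over contacts expected, in both E1-KO libraries was compared with the enrichment needed in both E1&E3-dKO libraries (the bounds). The enrichment in both E1-KO libraries exceeded both bounds for 1 of 32. At the enrichment seen in E1-KO, 2 of the 32 would have been listed in both E1&E3-dKO libraries, 11 in 1 and 19 in neither. These counts describe members that the listings themselves selected, in libraries of unequal depth, so they carry no weight as support. The part of depth in the losses was not tested. The counts also take it that a bin missing from a list was not removed by a filter.

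The lost interaction above both bounds joined 84.965 and 87.445 Mb on chromosome 1. It had 15 and 17 reads in E1-KO, an enrichment of 174 and 349.5 over the contacts expected, and needed 5 and 4 reads in E1&E3-dKO. The lower enrichment was only 1.09 times the higher bound, and E1&E3-dKO lists held 4 other pairs with both ends within 50 kb of it. The lost interaction of smallest mean p, averaged over the libraries that held it, linked 4.185 and 8.095 Mb on chromosome 14. It had 15 and 15 reads in E1-KO (enrichment 299 and 678), against a need of 5 and 4, and would have been listed in both E1&E3-dKO libraries at equal enrichment. These were the 2 lost contacts that would have been listed in both E1&E3-dKO libraries at the enrichment of E1-KO.

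The other lost contacts named by rule lay nearer to the detection limit. The pair at 66.585 and 66.835 Mb on chromosome 17 had 21 and 15 reads in E1-KO and needed 11 and 8 in E1&E3-dKO. The pair at 23.215 and 23.355 Mb on chromosome 5 had 14 and 13 reads and needed 9 and 7. The pair at 61.855 and 62.285 Mb on chromosome 13 had 12 and 12 reads and needed 8 and 6. For these the reads in E1-KO, scaled to the depth of E1&E3-dKO, fell under the need in at least 1 library. The pair at 18.335 and 25.075 Mb on chromosome 12 had 5 and 14 reads, with enrichments of 349 and 2073 that were far apart within E1-KO.

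The longest lost contacts rested on few reads. One joined 19.795 and 72.105 Mb on chromosome 8 on 5 and 4 reads in E1-KO. Another joined 3.015 and 32.115 Mb of the X chromosome on 4 and 4 reads. The other 3 lost pairs named by rule joined 6.115 and 8.345 Mb on chromosome 14, 5.795 and 8.185 Mb on chromosome 5, and 175.205 and 176.265 Mb on chromosome 1. The lost pair with the most reads, chosen after its values were seen, joined 122.615 and 122.645 Mb on chromosome 6, with 39 and 25 reads in E1-KO and a need of 24 and 17 in E1&E3-dKO.

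The same bounds describe the gained interactions, with no weight as support, since the selection used these listings and largely fixes the outcome in libraries of unequal depth. All 12 would have been listed in both E1-KO libraries at the enrichment seen in E1&E3-dKO, and the lower E1&E3-dKO enrichment was 0.985 to 1.497 times the higher E1-KO bound. The gained pairs had 4 to 18 reads in replicate 1 and 4 to 22 in replicate 2, and needed 4 to 24 and 4 to 17 in E1-KO.

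The gained interaction of smallest mean p linked 145.235 and 146.645 Mb on chromosome 4, on 10 and 7 reads in E1&E3-dKO with 8 and 7 needed in E1-KO. It had the widest margin, and all 4 libraries of E3-KO and E2-KO held it. However, E1-KO lists held 3 pairs with both ends within 50 kb of it. It was no longer gained when ends were matched within 2 or 5 bins, or without E1&E3-dKO replicate 1. The same held at an adjusted p of at most 0.001 and with equal list lengths. It stayed gained with identical bins, on autosomes alone, with at least 5 reads, and with any library but E1&E3-dKO replicate 1 left out. A pair at 65.705 and 66.825 Mb on chromosome 13 had 7 and 14 reads, with 7 and 6 needed. A pair at 7.105 and 22.105 Mb on chromosome 10 had 4 and 5 reads and enrichments of 1076 and 2563, with 4 and 4 needed. On chromosome 1, pairs at 179.885 and 180.085 Mb and at 179.865 and 180.075 Mb shared 1 listed pair of 14 reads in E1&E3-dKO replicate 1, so the 12 gained interactions stand for 11 pairs there. The second of them was the gained interaction that did not exceed both bounds.

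The other gained contacts spanned a wide range of distances. The shortest, with the most reads, joined 88.085 and 88.115 Mb on chromosome 7 on 18 and 22 reads, with 24 and 17 needed in E1-KO. Its distance was 30 kb. The pair at 62.155 and 62.275 Mb on chromosome 13 had 11 and 9 reads. The longest joined 19.855 and 72.065 Mb on chromosome 8 on 4 and 6 reads, and its ends lay within 100 kb of the lost pair at 19.795 and 72.105 Mb. The remaining gained pairs lay at 39.315 and 46.575 Mb on chromosome 7, 18.235 and 21.605 Mb on chromosome 12, and 4.355 and 7.805 Mb and 4.865 and 8.115 Mb on chromosome 14.

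**Figure D3:**
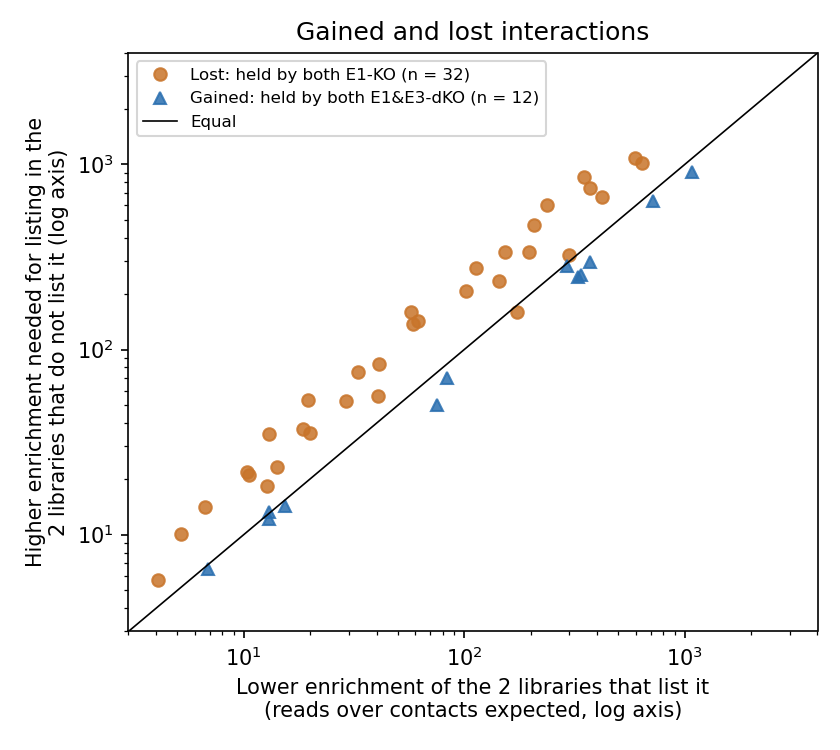
Lower enrichment in the 2 libraries that hold each gained or lost interaction, and the higher enrichment needed for listing in the other group, both on log axes, with a line of equality. The lower enrichment exceeds the enrichment needed for 11 of 12 gained, by at most 1.497 times, and for 1 of 32 lost.

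Some gained and lost contacts lay in the same stretches of a chromosome. Of the 33 pairs of 5 Mb windows that held a member, 6 held both a gained and a lost interaction, and 12 also held an interaction of all 4 libraries. A pair of E1-KO bins lay within 50 kb at both ends of 3 of the 12 gained, and a pair of E1&E3-dKO bins did so for 15 of the 32 lost. The lost pair at 4.185 and 8.095 Mb on chromosome 14 and the gained pairs at 4.355 and 7.805 Mb and at 4.865 and 8.115 Mb are one example, and the ends of chromosome 8 above are another. None of the 12 gained and none of the 32 lost interactions had an end within 25 kb of a boundary that changed in the same direction. How many of all interactions had such an end, or lay as near to others by window or within 50 kb, was not counted. Nothing about the members is therefore read from any of these counts.

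The 55 interactions of all 4 libraries allow a direct comparison of strength. Their median enrichment was 44.5 and 107 in E1-KO and 93.0 and 106 in E1&E3-dKO, and 47 of 55 were higher in E1&E3-dKO, with a median difference of 0.42 on the log2 scale. With each library centred on its median this difference was -0.10, and without E1-KO replicate 1, the library with the lowest median, it was -0.18. None passed limma at an adjusted p of 0.05 in either direction (0%), none had an unadjusted p under 0.05, and the smallest adjusted p was 0.994. On simulated data at this size limma called none of the changes of 1 on the log2 scale and 16.7% of those of 2, so a difference of these sizes could not be detected reliably.

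By position, 7 of the 55 had both E1&E3-dKO values above both E1-KO values (12.7%) and 1 had both below (1.82%). The largest log2 difference, 1.55 (SE 0.84, limma adjusted p = 0.994), was at 53.665 and 53.965 Mb on chromosome 14, where 9 and 9 reads in E1-KO gave enrichments of 17.2 and 33.3, and 16 and 13 reads in E1&E3-dKO gave 58.1 and 85.1. The next joined 7.475 and 10.655 Mb on chromosome 7 (12 and 5 reads against 12 and 12), followed by 116.495 and 136.275 Mb on chromosome 6 (22 and 18 against 23 and 24). The pair with both values below joined 65.625 and 65.765 Mb on chromosome 13, with 28 and 24 reads in E1-KO and 12 and 10 in E1&E3-dKO and a log2 difference of -0.91.

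TADs were more and shorter in the E1&E3-dKO libraries on average, with overlap between groups. They numbered 2715 and 3648 in E1-KO, against 3346 and 4871 in E1&E3-dKO (exact permutation p = 0.667). Median length was 260 and 190 kb against 210 and 120 kb. TADs of 90 kb and shorter made up 10.4% and 24.3% in E1-KO, against 20.8% and 37.8% in E1&E3-dKO. The log2 difference in number was 0.36 and became 0.09 without E1&E3-dKO replicate 2, which lists the most TADs; that in median length was -0.49 and became -0.08. The library with the most expected contacts at 1 Mb, E1-KO replicate 1, had the fewest TADs and that with the least, E1&E3-dKO replicate 2, the most, and the part of depth was not tested.

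TADs of 1 Mb and longer separated the groups. There were 241 and 217 in E1-KO and 183 and 109 in E1&E3-dKO, means of 229 ± 17.0 and 146 ± 52.3 (SD, n = 2 each), with an exact permutation p of 0.333. E1-KO replicate 2 and E1&E3-dKO replicate 1, closest in expected contacts at 1 Mb, had 217 and 183. Their TADs of all lengths numbered 3648 and 3346, so the E1&E3-dKO library had the fewer there.

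Boundaries were gained and lost across the genome. Of 14505 boundaries, matched within 20 kb, 627 were gained (4.32%) and 344 lost (2.37%), while 1954 were in all 4 libraries and 7827 in 1. Leaving out 1 library gave 998 (without E1-KO replicate 1) to 4848 (without E1&E3-dKO replicate 1) gained and 747 (without E1&E3-dKO replicate 2) to 2039 (without E1-KO replicate 1) lost. When each library gave its 2715 best TADs the order turned, with 317 gained and 395 lost. The nearest boundary of the other group lay at a median of 100 kb from a gained and 50 kb from a lost boundary. Within 50 kb of a boundary of the other group were 193 of the 627 gained and 182 of the 344 lost.

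The X chromosome held 115 gained boundaries of 1585 (7.26%), against 3.96% on the autosomes. It held 40 lost boundaries (2.52%, against 2.35% on the autosomes). For whole TADs the X chromosome stood the other way, with 10 of 1085 gained (0.922%, against 2.31% over all chromosomes) and 19 lost (1.75%, against 2.72%). Among autosomes, the share gained was lowest on chromosome 11 (2.71%), chromosome 17 (2.79%) and chromosome 5 (2.82%). The share lost ranged from 1.09% on chromosome 9 to 3.86% on chromosome 14 among autosomes. The X excess of gained boundaries was smallest without E1&E3-dKO replicate 1 (38.5% on X, 37.0% on autosomes) and without E1-KO replicate 1 (9.41% and 6.93%).

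**Figure D4:**
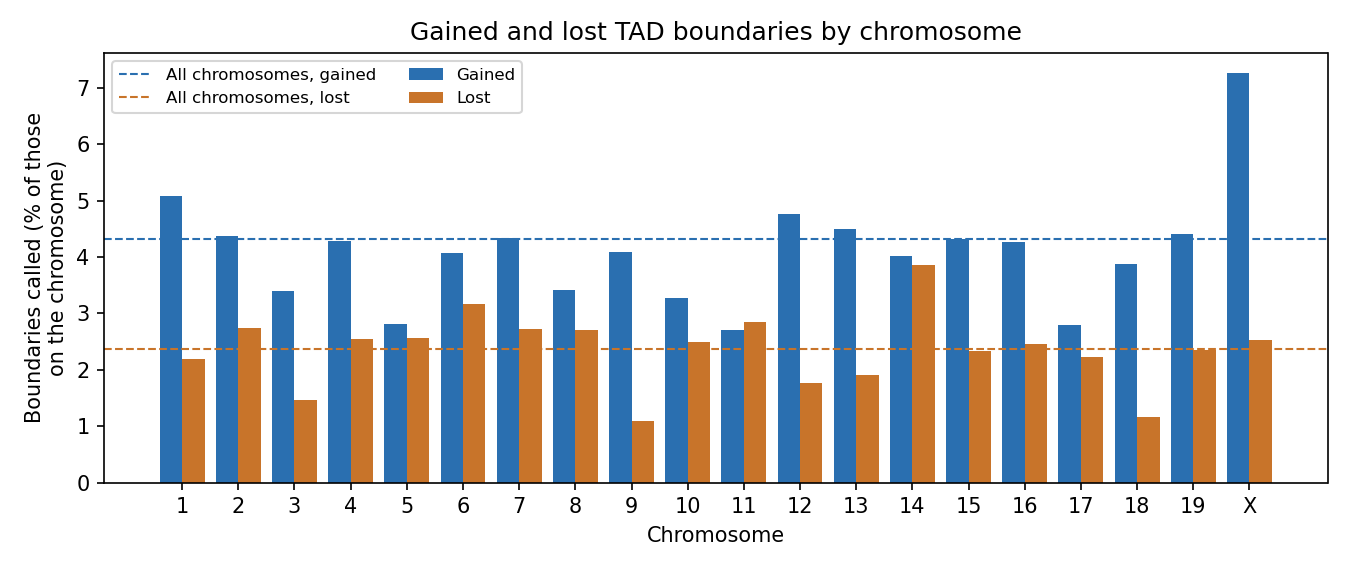
Percent of the boundaries of each chromosome that were gained or lost in E1&E3-dKO against E1-KO. The X chromosome has the highest gained share, 7.26%, and chromosome 14 the highest lost share, 3.86%.

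The X chromosome also differed between the E1-KO libraries. It held 172 of the TADs of E1-KO replicate 1 (6.34% of its list), 349 of E1-KO replicate 2 (9.57%), 321 of E1&E3-dKO replicate 1 (9.59%) and 446 of E1&E3-dKO replicate 2 (9.16%). E1-KO replicate 1 stood below the other 3, which lay together. Without E1-KO replicate 2, so with that library as the lone E1-KO list, 11.7% of X boundaries were gained against 7.61% of autosomal ones. By number, the windows of 10 Mb with the most gained boundaries were on X. They lay at 80 to 90 Mb (15 gained of 127), 150 to 160 Mb (13 of 102, with 0 lost) and 60 to 70 Mb (11 of 121). By share, some autosomal windows stood higher, such as 10 to 20 Mb on chromosome 12 (8 of 54) and 100 to 110 Mb on chromosome 1 (10 of 73).

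Of the 6 gained boundaries with the highest mean score, 4 lay on X. The authors' score, never under 1.5 in the lists, was highest at 34.80 Mb of X, with 3.192 and 3.485 in E1&E3-dKO (3.34 ± 0.207, SD, n = 2). The nearest E1-KO boundaries lay 1060 and 360 kb away, and none of the E3-KO and E2-KO libraries held it. The others on X were at 165.74 Mb (2.476 and 2.645), 68.65 Mb (2.041 and 2.98) and 5.26 Mb (1.919 and 2.766). The autosomal ones were at 13.49 Mb on chromosome 7 (2.402 and 2.864) and 143.52 Mb on chromosome 4 (1.971 and 2.998).

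The lost boundaries with the highest mean score were spread over more chromosomes. At 185.32 Mb on chromosome 1 the scores were 2.493 and 2.77 in E1-KO, and the nearest E1&E3-dKO boundaries lay 1260 and 1060 kb away. At 85.12 Mb on chromosome 1 the scores were 2.277 and 2.995, and this boundary lies within 200 kb of one end of the lost interaction at 84.965 and 87.445 Mb. The others were at 21.15 Mb on chromosome 14 (2.6 and 2.578), 36.96 Mb on chromosome 17 (2.636 and 2.538), 166.19 Mb of X (2.521 and 2.614) and 16.42 Mb on chromosome 7 (2.379 and 2.473). The one on chromosome 17 lay 30 kb from an E1&E3-dKO boundary, just past the matching limit.

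Of 9130 TADs, matched at a reciprocal overlap of 80%, 211 were gained (2.31%) and 248 lost (2.72%), with 844 in all 4 libraries. Leaving out 1 library gave 322 (without E1-KO replicate 2) to 3216 (without E1&E3-dKO replicate 1) gained and 421 (without E1&E3-dKO replicate 2) to 1669 (without E1-KO replicate 1) lost. Among TADs of score 2 and higher the order turned, with 55 gained and 27 lost. Lost TADs were longer, with a median of 265 kb against 160 kb for the gained. By length, 46 of 3326 TADs of 90 kb and shorter were gained (1.38%) and 23 lost (0.692%). Of TADs between 100 and 990 kb, 162 of 5484 were gained (2.95%) and 190 lost (3.46%). Of TADs of 1 Mb and longer, 3 of 320 were gained (0.938%) and 35 lost (10.9%). These shares also count TADs of 1 library. Of the 176 long TADs held by both E1-KO libraries 35 were lost, against 14.6% of 1704 TADs of all lengths. Of the 79 held by both E1&E3-dKO libraries 3 were gained, against 16.1% of 1313.

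Each changed TAD was sorted by what the other group held in its place. TADs covered 1094 and 1145 Mb in E1-KO and 1089 and 1027 Mb in E1&E3-dKO. How many other stretches were as little covered was not counted, so nothing about the changed TADs is read from these counts. Of the 211 gained TADs, 111 were less than 50% covered by TADs in both E1-KO libraries, 40 lay inside a longer TAD in both and 4 were subdivided in both. Of the 248 lost TADs, 105 were less than 50% covered in both E1&E3-dKO libraries, 18 lay inside a longer TAD in both and 10 were subdivided in both. The 35 lost TADs of 1 Mb and longer were subdivided in both E1&E3-dKO libraries in 3 cases and less than 50% covered in both in 18.

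The gained TAD with the highest score spanned 32.92 to 34.80 Mb of X (1880 kb, scores 3.192 and 3.485), a stretch less than 50% covered in both E1-KO libraries. The next were 13.49 to 13.64 Mb on chromosome 7, inside a longer TAD in both E1-KO libraries, and 165.74 to 166.41 Mb of X, less than 50% covered in both. A TAD of 80 kb at 35.61 to 35.69 Mb on chromosome 17 (scores 2.548 and 2.325) lay inside a longer TAD in both E1-KO libraries. The longest gained were 126.34 to 128.34 Mb on chromosome 10 (2000 kb), the TAD of 1880 kb on X above, and 110.90 to 112.07 Mb on chromosome 2 (1170 kb). The shortest, all of 60 kb, were 51.22 to 51.28 Mb on chromosome 7, 89.99 to 90.05 Mb on chromosome 1 and 57.61 to 57.67 Mb on chromosome 13. The remaining high-scoring ones were 10.81 to 11.00 Mb on chromosome 4 (2.065 and 2.283), inside a longer TAD in both E1-KO libraries, and 77.05 to 77.17 Mb of X (1.729 and 2.470).

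The lost TAD at 185.32 to 186.61 Mb on chromosome 1 (1290 kb, scores 2.493 and 2.77) was less than 50% covered in both E1&E3-dKO libraries. At 166.19 to 166.40 Mb of X, a lost TAD lay inside a longer TAD in both E1&E3-dKO libraries, within the span of the gained TAD at 165.74 to 166.41 Mb. The lost TAD at 85.12 to 85.23 Mb on chromosome 1 starts at the lost boundary at 85.12 Mb. The longest lost were 78.39 to 80.39 Mb on chromosome 18, 97.33 to 99.33 Mb on chromosome 14 (2000 kb each) and 42.14 to 44.12 Mb on chromosome 16 (1980 kb). The remaining high-scoring ones were 20.41 to 21.15 Mb on chromosome 14 (2.6 and 2.578), 56.40 to 56.62 Mb on chromosome 12 (2.222 and 2.33) and 119.30 to 120.10 Mb of X (2.226 and 2.274), the last less than 50% covered in both E1&E3-dKO libraries. The shortest were 142.30 to 142.36 Mb on chromosome 3 (60 kb), 76.48 to 76.55 Mb on chromosome 15 and 9.53 to 9.60 Mb on chromosome 4 (70 kb each).

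Among the 844 TADs of all 4 libraries, scores were slightly higher in E1&E3-dKO. Their median score was 1.83 and 1.84 in E1-KO and 1.86 and 1.91 in E1&E3-dKO, with 548 higher and 296 lower and a median difference of 0.03 on the log2 scale. None passed limma at an adjusted p of 0.05 in either direction (0%), 77 had an unadjusted p under 0.05, and the smallest adjusted p was 0.475. With the replicate number as a block 10 were higher, and without E1-KO replicate 2 it was 1. In simulated data limma recovered all changes of 1 and 2 on the log2 scale. Differences in these data ran from -0.22 to 0.58. Changes that small were not simulated, so whether limma could detect them is not known.

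Both E1&E3-dKO scores exceeded both E1-KO scores for 236 TADs (28.0%), and both lay below for 79 (9.36%). The largest difference was at 117.64 to 117.73 Mb on chromosome 10, with scores of 1.924 and 2.418 in E1-KO and 2.797 and 3.726 in E1&E3-dKO (log2 difference 0.58, SE 0.16, limma adjusted p = 0.475). At 51.41 to 51.51 Mb on chromosome 11 the scores were 1.89 and 1.764 against 2.329 and 2.9. At 69.62 to 70.00 Mb on chromosome 7 they were 1.851 and 2.015 against 2.462 and 2.775. In the reverse direction, at 37.49 to 37.76 Mb on chromosome 9, they were 1.782 and 1.921 against 1.633 and 1.544 (log2 difference -0.22). At 130.33 to 130.52 Mb on chromosome 6 they were 2.324 and 2.196 against 1.993 and 1.95. The groups did not overlap at any of these, but none of the differences passed the adjustment.

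Libraries lacking E3 alone or E2 alone give a further view, since they took no part in choosing the features. Gained boundaries were held by both E3-KO libraries in 96 of 627 cases (15.3%) and by both E2-KO libraries in 100 (15.9%). Lost boundaries were held by both E3-KO libraries in 101 of 344 cases (29.4%) and by both E2-KO libraries in 88 (25.6%). Boundaries of all 4 compared libraries were held by both E3-KO libraries in 77.3% and by both E2-KO libraries in 54.9%. For the 1911 boundaries held by 1 library of each group, these shares were 19.2% and 19.9%. Whether these shares differ was not tested.

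For TADs, both E3-KO libraries held 36 of the 211 gained (17.1%) and 53 of the 248 lost (21.4%), and both E2-KO libraries held 14 (6.64%) and 24 (9.68%). Of the 853 TADs held by 1 library of each compared group, both E3-KO libraries held 21.0% and both E2-KO libraries 9.96%, near the lost shares. For interactions, both E3-KO libraries held 1 of the 12 gained and 11 of the 32 lost, and both E2-KO libraries held 5 and 20. Of the 85 interactions held by 1 library of each compared group, both E3-KO libraries held 9 and both E2-KO libraries 33. Whether these shares differ was not tested. The E3-KO lists held 827 and 1467 interactions and the E2-KO lists 3497 and 1050. Boundaries numbered 6184 and 9326 in E3-KO and 15567 and 8074 in E2-KO. TADs numbered 3300 and 4859 in E3-KO and 7962 and 4215 in E2-KO. The length of the lists thus differs between these genotypes too, and within them. Of the 35 lost TADs of 1 Mb and longer, E3-KO replicate 1 held 21 and replicate 2 held 2, and the E2-KO libraries held 3 and 22. For these long TADs the libraries of a genotype differed widely.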

How the data were processed

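Per the submitters' processing notes, the tools were HOMER and HiC-Pro 2.10.0 and the build mm9; the tools' roles are not given in the sources used here. Each library has a deposited list of interactions between 10 kb bins, with a raw count of reads, a p-value (adjusted p at most 0.01) and bias factors, each a ratio to an average bin, and a deposited TAD list with the authors' score of at least 1.5. Total depth is unknown. For each pair, the contacts expected are the mean of the Poisson distribution whose upper tail at the listed reads equals the listed p-value, and enrichment is reads over that mean.

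Features were taken strongest first and matched within 1 bin (interactions), 20 kb (boundaries) or 80% reciprocal overlap (TADs). Numbers per library were compared by exact permutation, two-sided, and features of all 4 libraries with limma 3.58.1 in R 4.3.3 on log2 values, with Benjamini-Hochberg adjustment; limma and the matching were tested on simulated data. Named regions followed a rule: all gained interactions, the 10 lost ones with the smallest mean p and 3 per distance class, the 6 boundaries and TADs with the highest mean score, and the 3 longest and 3 shortest TADs; of features in all 4 libraries, the 3 largest folds each way among groups that did not overlap. Members, lists and rules were chosen with earlier results of these data known. Alternatives were other matching limits, stricter lists, autosomes only, equal list lengths, centring, the replicate number as a block, and each library left out.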

Additional observations from a re-analysis of the deposited data

How the results depend on the processing

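Of 132 alternatives to the main results, 96 left a difference on the same side or a count within 1.5 times. Another 35 moved a count by over 1.5 times, and 1 turned the direction of a difference. There, with at least 5 reads, a limit added after seeing the data, the difference in number of interactions was -1.07 on the log2 scale. It was 1.61 in the main setting and 0.20 to 3.02 with each library left out. The tally does not cover the order of gained against lost or the sign of the median enrichment difference, which turned in some settings given above. Gained interactions numbered 6 with equal list lengths and 6 with at least 5 reads, and lost ones 21 when ends matched within 5 bins. At a score of 2 and higher, boundaries gained and lost numbered 117 and 44, and TADs 55 and 27. With equal list lengths, gained boundaries numbered 317 and gained TADs 118, and lost boundaries matched within 50 kb numbered 218. Leaving out each library gave 19 to 5796 interactions gained and 47 to 744 lost, 998 to 4848 boundaries gained and 747 to 2039 lost, 322 to 3216 TADs gained and 421 to 1669 lost, and 0 to 1 TAD scores called; these counts rise because fewer lists must hold or lack a feature. With the replicate number as a block, 10 TAD scores and 0 interaction enrichments were called. The numbers are shared only as numbers: deviations of same-numbered libraries correlated at 0.0413 for TAD scores and 0.150 for enrichment. With the numbers crossed 0 TAD scores were called. Depth and the largest p-value listed in each library both limit what could be listed. An average pair at 1 Mb needed 8 and 6 reads in E1-KO and 6 and 5 in E1&E3-dKO.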

Other observations

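The bias factors of the interaction lists differed between chromosomes. Relative to the autosomal median, the X chromosome stood at 0.608 and 0.688 in E1-KO and at 0.669 and 0.662 in E1&E3-dKO. Chromosome 6 stood at 1.33 and 1.22 in E1-KO and at 1.28 and 1.29 in E1&E3-dKO, with 1.21 and 1.22 in E2-KO and 1.01 and 1.04 in E3-KO. Chromosome 8 stood at 1.32 and 1.11 in E1-KO and at 1.23 and 1.23 in E1&E3-dKO, with 1.19 and 1.20 in E3-KO. The other 17 autosomes lay between 0.822 and 1.08 in the 4 compared libraries.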
